A study of Mus musculus with 24 samples.

Results

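The comparison described here is that of SIM-A9 cells exposed to the calcium dye Fura-2 with untreated SIM-A9 cells. It takes 6 of the series' 24 poly-A RNA libraries, the 3 labelled Fura-2 and the 3 labelled control, and all 13116 of the table's 54838 genes that passed a filter on low counts. SIM-A9 is a line of microglia, the resident macrophages of the brain, from mice. Every group was handled alike: wells of a 48-well plate were moved to 270 uL of DMEM/F12 without serum for 2 h, 30 uL of the agent at 10 times its final strength then went in, and the adherent cells were lysed for RNA after a further 2 h. The control is labelled untreated, and whether it received a vehicle is not given in the sources used here, nor are the dose of Fura-2 and its form (free acid or cell-permeant ester). The groups LPS, Di-2-ANEPEQ and AAV are used beside these: LPS is bacterial lipopolysaccharide, the study's positive control for inflammation, Di-2-ANEPEQ (spelled in several ways in the labels) is another dye, and AAV is adeno-associated virus, a gene-delivery vector. DiBASC2, (GT)6 SWCNT and COOH SWCNT (2 kinds of carbon nanotube) enter through the shared estimate of the spread, since 1 model was fitted to all 24 libraries, and otherwise by values set side by side. The labels do not say that the 3 libraries of a group came from separate cultures, so the p-values measure the spread between libraries, which may be technical.

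Fura-2 is a fluorescent indicator built on a calcium chelator, and its excitation shifts when it binds calcium. It also binds other divalent metals, zinc among them. In microglia, extracellular nucleotides raise cytosolic calcium through P2 receptors, IP3 receptors release it from the endoplasmic reticulum, STIM sensors open ORAI channels when that store empties, and SERCA pumps refill it. Calmodulin and calcineurin carry the signal to NFAT transcription factors and immediate early genes. Chelating indicators also buffer the calcium that they report. The study set such probes against LPS to ask whether they provoke an inflammatory response.

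Few transcripts passed the test between Fura-2 and control, and the fitted changes of those that did were small. By edgeR's quasi-likelihood test with Benjamini-Hochberg adjustment, 33 of 13116 genes (0.252%) passed an adjusted p of 0.05, here termed called. Of these, 5 were higher in Fura-2 (0.0381% of genes), among them Ddit4, an inhibitor of mTORC1, and 28 were lower (0.213%), among them Cyp51 and Insig1 of the sterol pathway and 4 ribosomal protein genes. Levels are given as CPM, counts per 1000000 of the scaled library size. All 33 changes were smaller than 1.5-fold, with log2 fold changes between 0.16 and 0.52 in size, and the libraries of the 2 groups did not overlap for any of them. Over all genes the groups did not overlap for 2127 (16.2%), and 1411 genes (10.8%) had an unadjusted p under 0.05, 640 of them higher (4.88%) and 771 lower (5.88%).

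The number of calls depended on which libraries were kept. Without Fura-2 replicate 2, Fura-2 replicate 3, control replicate 1 or control replicate 3, 0 genes were called by the same edgeR test, although 1167, 915, 975 and 1197 genes then had an unadjusted p under 0.05. Without control replicate 2, 57 were called, 28 of the 33 among them, and without Fura-2 replicate 1, 106 were called, 31 of the 33 among them. None of the 33 changed its direction in these fits. DESeq2's Wald test called 86 genes, 30 of the 33 among them. The 6 libraries held 18176300 to 23155600 counts in control and 19805600 to 25778200 in Fura-2, and the biological coefficient of variation over all 24 libraries was 4.12%. The library names end in S numbers that ran in blocks by group, 24 to 26 for control and 36 to 38 for Fura-2. What these numbers stand for is not given in the sources used here. An effect of any order behind them and one of group cannot be told apart.

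**Figure D1:**
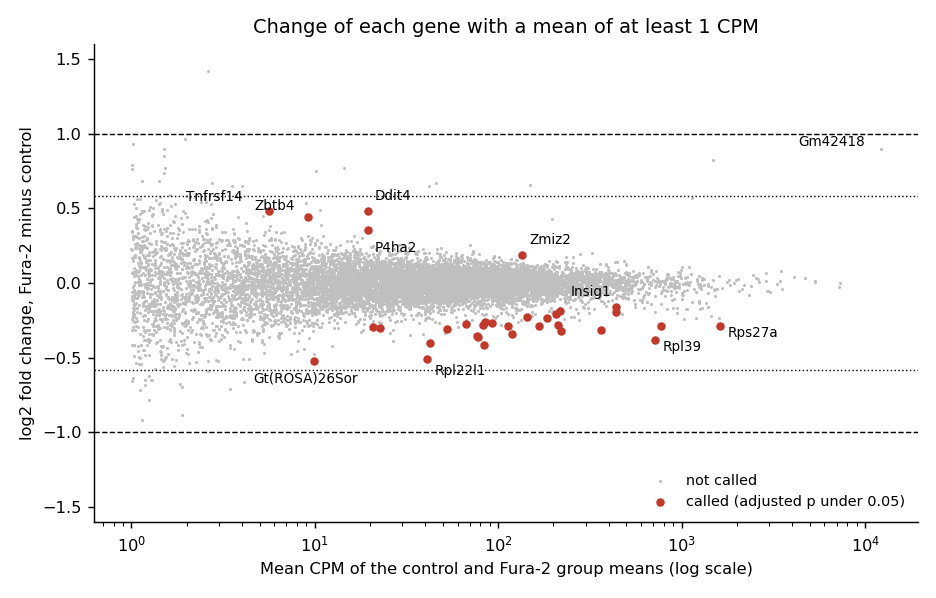
Log2 fold change of Fura-2 minus control against mean CPM (log axis) for each tested gene with a mean of at least 1 CPM; red points are the 33 called genes, dotted lines mark 1.5-fold and dashed lines 2-fold. The called genes all lie inside the dotted lines, and the scatter narrows as the level rises.

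What these libraries bound is wider in scope than what they called. For each gene, a pair of one-sided tests asked whether the change lies inside a given fold in either direction, and a gene that passed at an adjusted p of 0.05 is termed bounded. In all, 10321 genes (78.7%) were bounded within 1.5-fold and 11707 (89.3%) within 2-fold. The limit followed the level of the transcript. Of the 2047 genes under 1 CPM, 9 (0.440%) were bounded within 1.5-fold and 702 (34.3%) within 2-fold, and the median half-width of the 95% interval was 1.93-fold. At 1 to 5 CPM the median half-width was 1.35-fold, and 54.5% of 1581 genes were bounded within 1.5-fold and 96.5% within 2-fold. At 5 to 20 CPM it was 1.15-fold, at 20 to 100 CPM 1.08-fold and above 100 CPM 1.06-fold.

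Of the 9488 genes with at least 5 CPM, a class that holds all 33 called genes, 9450 (99.6%) were bounded within 1.5-fold and 9479 (99.9%) within 2-fold. No gene of this class had a fitted change of 2-fold. Leaving out each library in turn kept the number of genes bounded within 1.5-fold between 10035 and 10142 and within 2-fold between 11318 and 11436. Of the 1409 genes not bounded within 2-fold, 1345 had a mean under 1 CPM, and for 18 tested genes no library of either group held more than 3 counts. For such genes these libraries do not bound a change to within 2-fold. Of the 18, 17 were called higher in LPS against control at 2-fold or more, so they passed the count filter with LPS libraries in the fit.

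The 9 genes at or above 5 CPM that were not bounded within 2-fold all had values above control in the fit, between 0.54 and 0.90 on the log2 scale, and none was called (smallest adjusted p 0.286). They were Gm42418, CT010467.1, Gm15564, Gm23935, Gm24187, Gm24270, Mir6236, Lars2 and Rgs9, named after their values were seen. Gm42418 and CT010467.1 overlap each other on chromosome 17, CT010467.1 is annotated as ribosomal RNA, and 4 of the others are annotated as microRNA genes. Gm42418 (ENSMUSG00000098178.1, GRCm38 chr17:39846958-39848788, annotated as lincRNA) stood at 7571, 6583 and 11410 CPM in the control libraries and at 15919, 14946 and 16705 CPM in the Fura-2 libraries, a log2 difference of 0.90 ± 0.33 (SE, adjusted p 0.286). Gm23935 stood at 872, 861 and 1471 CPM in control and 1889, 1944 and 1847 CPM in Fura-2 (0.83 ± 0.34). Rgs9, a regulator of G protein signalling, stood at 8.85, 8.81 and 14.5 CPM in control and 16.3, 18.4 and 19.7 CPM in Fura-2 (0.77 ± 0.33). In all 9 genes control replicate 3 was the highest control, and in 8 of the 9 the groups still did not overlap (16.2% of all genes did not). The 9 genes, Rgs9 among them, shared this rise in control replicate 3, so they are not 9 independent observations. Fitted on the 2 groups alone, which estimates the spread without the other 18 libraries, Gm42418, Gm23935 and Rgs9 were called (adjusted p 0.000584, 0.0015 and 0.00698). Against AAV the 9 differences were 0.68 to 1.05 and against Di-2-ANEPEQ 0.79 to 1.03, all at an unadjusted p under 0.05 and none called. The rise was not particular to Fura-2. COOH SWCNT averaged above Fura-2 in all 9 but Gm42418 (14370 against 15856 CPM) and CT010467.1 (10.9 against 12.7 CPM). The SD of Gm42418 was 5191 CPM in LPS, 4768 in (GT)6 SWCNT and 5401 in DiBASC2, beside 881 in Fura-2.

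The calcium genes gave no call, which for lists of this size is near the 0.252% called over all genes. Of the 38 listed genes of calcium entry, stores and export, 33 were tested and 0 were called. At an unadjusted p under 0.05 was 1 in each direction (6.06% in all, beside 10.8% of all genes). The median log2 fold change of the list was 0.02, beside −0.0001 over all genes, and 32 of the 33 were bounded within 1.5-fold. Orai1, the pore of the store-operated channel, was at 17.8 ± 1.18 CPM in control (SD, n = 3) and 18.1 ± 1.11 in Fura-2, with a 95% interval of the log2 difference from −0.13 to 0.17. Stim1, the store sensor, was at 38.8 ± 2.79 and 41.2 ± 0.610 CPM (−0.03 to 0.19). The IP3 receptors Itpr1 (−0.10 to 0.13) and Itpr2 (−0.09 to 0.19) and the SERCA pump Atp2a2 (−0.09 to 0.07) were bounded as closely. Tpcn1, a two-pore channel of endolysosomes, was at 172 CPM in control and 188 in Fura-2 (unadjusted p 0.0131, adjusted 0.303), and Atp2c1, the calcium and manganese pump of the Golgi, at 112 and 106 CPM (0.0421, adjusted 0.443). The gene not bounded was the SERCA isoform Atp2a3, at 0.682 ± 0.160 and 0.503 ± 0.0873 CPM, with an interval from −1.23 to 0.28.

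Among 33 tested genes of calcium sensors and effectors, 0 were called and 31 were bounded within 1.5-fold. At an unadjusted p under 0.05 were 2 in each direction (12.1% in all, beside 10.8% of all genes). The closest to a call was S100a4, a small calcium-binding protein. Its libraries stood at 13.0, 10.9 and 10.9 CPM in control and at 8.71, 9.15 and 7.16 CPM in Fura-2 (−0.48 ± 0.13, adjusted p 0.0898). The groups did not overlap, and S100a4 was called when the 2 groups were fitted alone (adjusted p 0.0429) and by DESeq2 (0.0498). The other members past an unadjusted p of 0.05 were Anxa1, a calcium-dependent phospholipid-binding protein (90.2 to 80.7 CPM, adjusted p 0.234), the kinase gene Prkca (20.7 to 23.3 CPM, adjusted p 0.363) and Camkk1, an upstream kinase of the calmodulin kinases (0.629 to 1.17 CPM, adjusted p 0.253). Camkk1 had the widest interval of the list, 0.25 to 1.497.

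The targets of the calcineurin arm did not pass the test either. Of 10 tested NFAT and calcineurin feedback genes, 0 were at an unadjusted p under 0.05 (10.8% of all genes were). All 10 were bounded within 1.5-fold (78.7% of all genes were), with a median log2 fold change of 0.04. Rcan1, the calcineurin inhibitor whose transcription NFAT drives, stood at 60.6, 65.9 and 62.3 CPM in control and at 63.4, 61.0 and 58.9 CPM in Fura-2. These groups overlapped, and the interval ran from −0.14 to 0.05.

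The immediate early genes, which calcium and mitogen signals induce within minutes, gave no call. Of 30 tested, 0 were called (0.252% of all genes were). At an unadjusted p under 0.05 and higher in Fura-2 were 4 (13.3%, beside 4.88% of all genes), namely Fosl2, Dusp5, Nr4a1 and Nr4a3. The fitted change was above 0 in 26 of the 30, with a median of 0.10. Nr4a1, an orphan nuclear receptor that calcium entry induces in immune cells, stood at 44.01, 39.6 and 45.1 CPM in control and at 43.02, 51.3 and 56.1 CPM in Fura-2 (0.23 ± 0.09, adjusted p 0.298). Those groups overlapped in Fura-2 replicate 1. Fosl2, an AP-1 subunit, was at 59.4 CPM in control and 66.8 in Fura-2 (0.17, interval 0.08 to 0.26, adjusted p 0.084). Fos was at 12.8 ± 1.68 and 13.0 ± 0.648 CPM, with an interval from −0.17 to 0.22. In the median over the 30 genes, Fura-2 differed from Di-2-ANEPEQ by 0.10 and from AAV by 0.02. Fosb, under 1 CPM, was the least bounded (−0.18 to 1.69), and Egr1 held at most 2 counts in any of the 6 libraries and was not tested.

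No inflammatory gene was called, and for nearly all of them the intervals were narrow beside the LPS response. Of 25 listed genes 24 were tested, 0 of them at an unadjusted p under 0.05 in Fura-2 against control (10.8% of all genes were). All 24 were called higher in LPS against control (28.3% of all genes were called there, in either direction). The list was chosen with earlier results known, and a member such as Csf3 passed the count filter only on libraries of other groups. The LPS calls thus describe the list and do not test it. Tnf, the cytokine released first on Toll-like receptor signalling, stood at 37.0, 35.1 and 34.6 CPM in control and at 34.3, 30.9 and 36.1 CPM in Fura-2, and these overlapped. Its change lay between 0.882-fold and 1.03-fold (95% interval), against a log2 fold change of 5.01 in LPS. Il1b, encoding interleukin-1 beta, lay between −0.14 and 0.29 in log2 fold change (5.59 in LPS), and the chemokine gene Cxcl2 between −0.30 and 0.14 (6.51 in LPS). Nfkbia, the feedback inhibitor of NF-kappaB, lay between −0.07 and 0.13, and Ptgs2, the inducible prostaglandin synthase, between −0.05 and 0.19. Of the 24 genes, 22 were bounded within 1.5-fold, and the median change of those above 3 counts in some library was 0.04.

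The exceptions were Il6 and Csf3. Il6, encoding interleukin-6, was at 0.201 ± 0.0270 CPM in control and 0.168 ± 0.0569 in Fura-2, with an interval from −1.35 to 0.91, and was not bounded within 2-fold. Csf3 had at most 3 counts in each control and Fura-2 library. Beyond the list, 243 genes at 5 CPM or more were called in LPS against control at 2-fold or more. Of these 0 were called in Fura-2 against control and 242 were bounded within 1.5-fold, beside 99.6% of all genes at that level. These comparisons share the control libraries. Among all tested genes, 4610 (35.1%) were called between Fura-2 and LPS, of which 2282 were higher in Fura-2 (49.5%). With upper-quartile scaling this share was 62.1% of 4970.

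**Figure D2:**
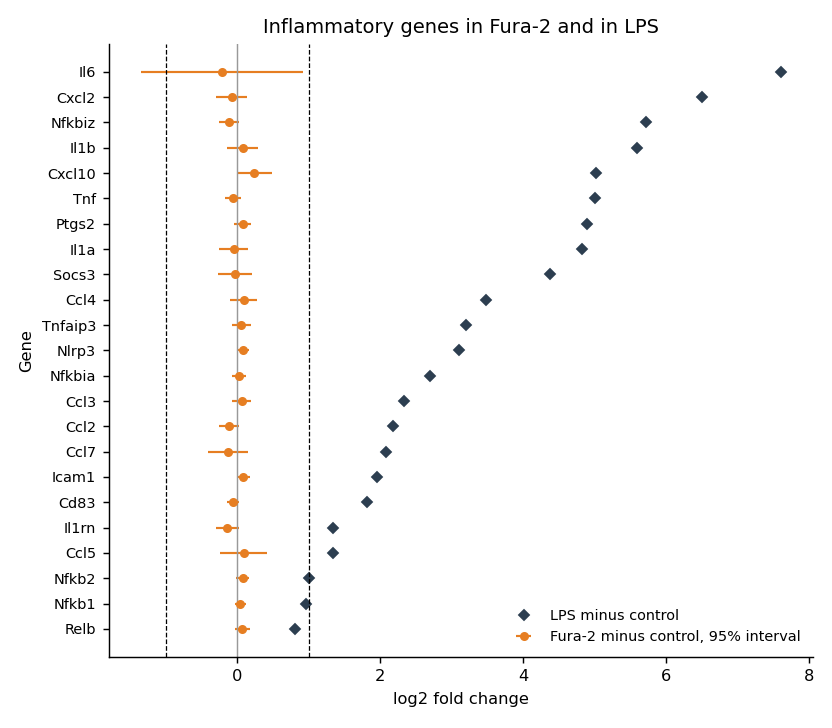
Log2 fold change against control of the inflammatory genes with more than 3 counts in some library: orange points and bars are Fura-2 with its 95% interval, dark diamonds are LPS, and dashed lines mark 2-fold. The Fura-2 intervals lie inside the dashed lines for every gene drawn except Il6, whose interval runs from −1.35 to 0.91.

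The remaining stress programmes held 1 call among them, beside 0.252% of all genes called. Of 19 tested interferon response genes 0 were called. At an unadjusted p under 0.05 was 1 in each direction (10.5% in all, beside 10.8% of all genes). Bounded within 1.5-fold were 13, the smallest share of these lists. Of 18 metal and oxidative stress genes 0 were called and 17 were bounded within 1.5-fold. The metallothioneins, zinc-binding proteins that zinc induces, were both above control without passing: Mt2 stood at 251, 241 and 229.5 CPM in control and 276, 271 and 268 CPM in Fura-2 (0.18 ± 0.08, adjusted p 0.379), and Mt1 at 421 ± 9.80 and 463 ± 10.4 CPM (0.14, adjusted p 0.467). Neither pair of groups overlapped, and Mt2 was called when the 2 groups were fitted alone (adjusted p 0.0296). Mt2 averaged 271 CPM in Fura-2, 283 in AAV, 280 in DiBASC2 and 250 in Di-2-ANEPEQ. It averaged 251 CPM with COOH SWCNT, 247 with (GT)6 SWCNT and 227 in LPS. Hmox1, the heme oxygenase of the oxidative stress response, lay between −0.15 and 0.08. The list's widest interval was that of Nqo1 (−0.04 to 1.78), at 0.499 CPM in control and 0.931 in Fura-2.

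Of 22 unfolded protein and integrated stress response genes, 0 were called. At an unadjusted p under 0.05 were 4, all lower in Fura-2 (18.2% of the list, beside 5.88% of all genes). Hspa5, the chaperone BiP that buffers endoplasmic reticulum calcium, stood at 1310, 1279 and 1312 CPM in control and at 1187, 1200 and 1185 CPM in Fura-2. These groups did not overlap (−0.13 ± 0.04, adjusted p 0.110), and DESeq2 called it (0.0178). Hspa5 averaged 1191 CPM in Fura-2, 1185 in Di-2-ANEPEQ, 1150 in AAV and 1144 in DiBASC2. In Di-2-ANEPEQ, AAV and DiBASC2 it was called lower than in control (edgeR adjusted p 0.0270, 0.00285 and 0.000801). It averaged 1268 CPM with COOH SWCNT, 1433 with (GT)6 SWCNT and 1543 in LPS. Ddit3, encoding CHOP, was bounded less well, between −0.45 and 0.23. Heat shock genes gave 0 of 10 called and all 10 bounded within 1.5-fold. Cell cycle genes gave 0 of 18 called and all 18 bounded within 1.5-fold. Over all genes 0.252% were called and 78.7% were bounded within 1.5-fold, so 0 calls in lists of this size is near the general share. An unadjusted p under 0.05 was found for 5 (27.8%, beside 10.8% of all genes), 2 of them higher. The groups did not overlap for 6 (33.3%, beside 16.2% of all genes). Cdk1, the mitotic kinase, was nearest a call (151 and 135 CPM, adjusted p 0.0595), and was called lower with length and GC trends removed (adjusted p 0.0366). Of 19 hypoxia and glucocorticoid targets, Ddit4 was called, 1 of 4 that were higher at an unadjusted p under 0.05 (4.88% of all genes were).

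No microglial marker was called, which for 12 genes is near the 0.252% called over all genes. All 12 microglia and macrophage markers were tested, and all 12 were bounded within 1.5-fold. Over all genes 78.7% were so bounded, and 99.6% of those at 5 CPM or more. The summed level of the 12 was 2699 to 2773 CPM in control and 2705 to 2758 in Fura-2. Over the 6 libraries Cd68 stood at 814 to 850 CPM and Csf1r at 485 to 522. P2ry12 stood at 1.54 to 3.26, Tmem119 at 3.47 to 4.34 and Aif1 at 4.03 to 4.97 CPM, so the sum says little of them. Csf1r, the receptor for colony stimulating factor, lay between −0.05 and 0.10, Trem2 between −0.18 and −0.01, Cx3cr1 between −0.07 and 0.32 and Aif1 between −0.26 and 0.33. Markers of other brain cells were absent or low. Among them Mbp, of oligodendrocytes, stood at 3.10 to 5.36 CPM, a level like that of Tmem119 and Aif1. No astrocyte, fibroblast or endothelial marker passed the count filter, with Aqp4, Aldh1l1, Dcn and Cldn5 at 0 counts in all 6 libraries. Of neuronal markers only Map2 passed (0.582 ± 0.0675 and 0.273 ± 0.132 CPM, adjusted p 0.407), with Snap25, Syt1 and Gad1 at 0. Oligodendrocyte markers summed to 4.11 to 5.22 CPM in control and 4.54 to 5.69 in Fura-2, with Mog at 0.

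The 5 genes that rose in Fura-2 have no common textbook role. Ddit4 (REDD1, ENSMUSG00000020108.4, chr10:59949669-59951834) encodes a stress-induced inhibitor of mTORC1. It stood at 15.5, 14.9 and 18.3 CPM in control and at 23.9, 21.4 and 22.4 CPM in Fura-2, a log2 fold change of 0.48 ± 0.11 (adjusted p 0.0425). Its groups were well apart, yet it was the only 1 of the 33 that lost its call in every fit that left out a library (adjusted p 0.0794 to 0.246). P4ha2, a collagen prolyl 4-hydroxylase subunit, stood at 16.3, 17.9 and 16.8 CPM in control and at 21.9, 23.4 and 20.3 CPM in Fura-2 (0.35 ± 0.07, adjusted p 0.0233). Zbtb4, a zinc finger repressor that binds methylated DNA, rose from 7.83 ± 0.334 to 10.6 ± 0.160 CPM (0.44 ± 0.10, adjusted p 0.0323). Tnfrsf14, the receptor HVEM of the TNF receptor family, rose from 4.70 ± 0.353 to 6.57 ± 0.213 CPM (0.48 ± 0.11, adjusted p 0.0422). Zmiz2, a coactivator related to PIAS proteins, rose from 127 ± 3.69 to 144 ± 5.23 CPM (0.19 ± 0.04, adjusted p 0.0425).

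Among the 28 genes that fell, the lowest adjusted p belonged to 1810022K09Rik (ENSMUSG00000078784.8, chr3:14606284-14611285, minus strand), an uncharacterised gene whose exons overlap E2f5 on the other strand. It stood at 100.1, 86.4 and 99.4 CPM in control and at 78.6, 71.1 and 64.9 CPM in Fura-2 (−0.41 ± 0.07, adjusted p 0.0131). All 3 Fura-2 libraries lay below all 3 controls. The next, 3830403N18Rik (ENSMUSG00000031125.2, chrX:56136572-56153498), stood at 94.5, 80.9 and 87.2 CPM in control and at 75.0, 66.1 and 63.1 CPM in Fura-2 (−0.36 ± 0.07). Gt(ROSA)26Sor (ENSMUSG00000086429.9, chr6:113067428-113077333), the non-coding transcript of the Rosa26 locus used for transgenes, stood at 11.5, 11.2 and 12.6 CPM in control and at 8.95, 8.04 and 7.54 CPM in Fura-2. This was the largest fall of the 33, at −0.52 ± 0.10 (adjusted p 0.0162), though the gene is annotated antisense to Thumpd3 and the counting strand is not given in the sources used here. For the same reason the values of genes with exons overlapping another gene are uncertain, which among the called genes below applies to Rpl22l1, Cyp51, Pfdn4, Cox6c, Ovca2, Usmg5, Rps27a and Slirp.

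Of the lowered genes, 4 encode ribosomal proteins. Rpl39 (chrX:37082520-37085402), a small subunit of the large ribosomal particle, stood at 855, 738 and 833 CPM in control and at 679, 644 and 542 CPM in Fura-2 (−0.38 ± 0.07, adjusted p 0.0144). Rpl22 (chr4:152325742-152334071) stood at 879, 784 and 891 CPM in control and at 745, 698 and 649 CPM in Fura-2 (−0.29 ± 0.06, adjusted p 0.0183). Its paralogue Rpl22l1 (chr3:28805436-28807424) stood at 53.1, 41.8 and 49.2 CPM in control and at 38.5, 34.6 and 28.02 CPM in Fura-2 (−0.51 ± 0.09, adjusted p 0.0162). In each of the 3 genes Fura-2 replicate 3 was the lowest library and control replicate 2 the lowest control. Rps27a, which encodes a ubiquitin fusion with a small-subunit protein, fell from 1784 ± 125 to 1462 ± 166 CPM (−0.29 ± 0.07, adjusted p 0.0422).

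Over the family of cytosolic ribosomal protein genes, 82 of 85 were tested, and these 4 were called lower and 0 higher. At an unadjusted p under 0.05 were 29, all lower (35.4% of the family, beside 5.88% of all genes). The median log2 fold change was −0.06, and 77 of the 82 were bounded within 1.5-fold. Against Di-2-ANEPEQ and AAV the family's medians were 0.06 and 0.03, with Fura-2 the higher. The called count of the family ran from 0 to 6 as single libraries were left out. Ribosomal proteins took 7.01% to 7.43% of counts in the control libraries and 6.49% to 7.09% in Fura-2. Their genes have many processed pseudogenes, so how shared reads were counted makes single values uncertain. Srp19 of the signal recognition particle (72.5 to 60.1 CPM) and the initiation factor subunit Eif3h (465 to 416 CPM, −0.16 ± 0.04, the smallest change called) also fell.

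The other lowered genes spread over several compartments. Pdcd10 (chr3:75516490-75556856), the third gene of cerebral cavernous malformation, stood at 89.7, 77.5 and 90.2 CPM in control and at 73.3, 67.1 and 60.8 CPM in Fura-2 (−0.35 ± 0.07, adjusted p 0.0162). Itpa, which clears deaminated purine nucleotides, stood at 87.1, 87.8 and 95.5 CPM in control and at 77.5, 76.3 and 69.2 CPM in Fura-2 (−0.28 ± 0.05). Sat1, the rate-limiting enzyme of polyamine catabolism, stood at 199.8, 171 and 182 CPM in control and at 158, 153 and 142 CPM in Fura-2 (−0.29 ± 0.06). The groups of these 3 genes did not overlap. Sf3b6, a subunit of the U2 spliceosomal particle, stood at 135, 125 and 138 CPM in control and at 117, 104 and 92.0 CPM in Fura-2 (−0.34 ± 0.07, adjusted p 0.0183). Pfdn4, a prefoldin subunit, stood at 49.6, 42.9 and 53.3 CPM in control and at 39.6, 37.5 and 33.3 CPM in Fura-2 (−0.40 ± 0.08, adjusted p 0.0233).

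Further lowered genes, in no list, were these. Cox6c, a cytochrome c oxidase subunit, stood at 412, 377 and 424 CPM in control and at 354, 326 and 295 CPM in Fura-2 (−0.32 ± 0.06, adjusted p 0.0233). Fundc2, of the outer mitochondrial membrane, stood at 95.9, 86.9 and 92.5 CPM in control and at 78.6, 77.1 and 74.0 CPM in Fura-2 (−0.26 ± 0.05, adjusted p 0.0171). Usmg5, an ATP synthase subunit, fell from 243 ± 23.9 to 194 ± 15.1 CPM. Timm8a1, a chaperone of mitochondrial import, fell from 58.4 ± 3.30 to 47.1 ± 3.22 CPM, Slirp, which stabilises mitochondrial transcripts, from 124 ± 7.53 to 101 ± 8.92 CPM, and Hibch, of valine breakdown, from 24.95 ± 1.86 to 20.2 ± 0.769 CPM. The share of counts from mitochondrial genes was 1.54% to 1.72% in control and 1.43% to 1.67% in Fura-2. The rest of the 28 were the proton pump subunit Atp6v0e (234 to 192 CPM), the elongin subunit Eloc (101 to 84.0 CPM), the phosphatase catalytic subunit Ppp1cc (221 to 192 CPM), the acetyltransferase subunit Naa20 (199 to 169 CPM), Ovca2 (23.0 to 18.8 CPM) and the small GTPase Rap1a (154 to 131 CPM).

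**Figure D3:**
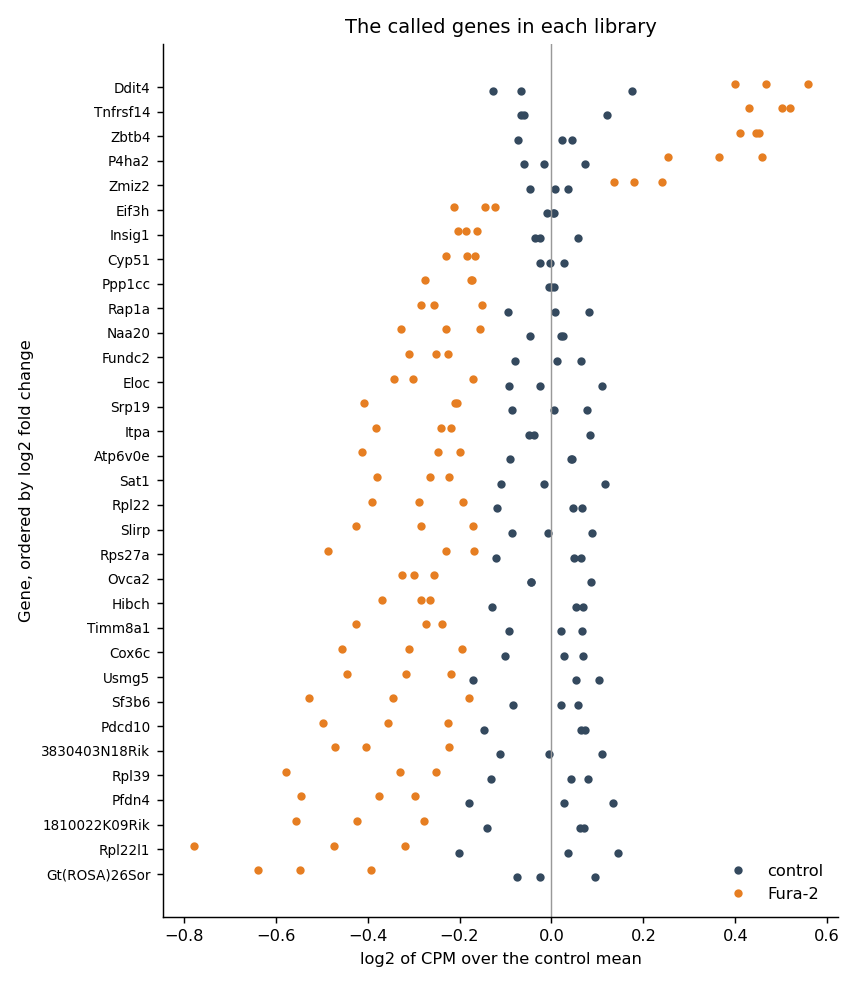
Log2 of each library's CPM over the control mean for the 33 called genes, with control libraries dark and Fura-2 libraries in orange. In every row the colours do not overlap, and among the lowered genes the leftmost orange point is Fura-2 replicate 3 in 26 of 28.

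Exon length, here the merged length of all annotated exons of a gene, was compared across the same libraries. It can exceed the length of the transcript that the cells make. A gene with more than 1 kb of exon may therefore still have a short transcript. Fura-2 replicate 3 was the lowest of the 6 libraries for 26 of the 28 lowered genes, and control replicate 2 was the lowest control for 25. Among genes of at least 5 CPM, the median deviation of those with under 1 kb of exon from their 6-library mean was 0.04, −0.02 and −0.09 on the log2 scale in Fura-2 replicates 1, 2 and 3 and 0.06, −0.03 and 0.04 in control replicates 1, 2 and 3. Fura-2 replicates 1 and 2 lay within the control range and replicate 3 below it. The lowered genes had a median exon length of 2780 bases against 4638 for all genes of at least 5 CPM. Under 1 kb were 0 of the 28, beside 2.11% of all genes of at least 5 CPM. Across 9487 such genes, which are not independent replicates, the log2 fold change had a Spearman correlation of 0.205 with exon length and 0.271 with GC content. With each library's trend with length and GC content removed, 53 genes were called, 48 of them lower, and 31 of the 33 remained among them. The calls lost were those of Zmiz2 and Fundc2 (adjusted p 0.130 and 0.147).

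Sterol genes supplied 2 of the 28. Cyp51, the lanosterol demethylase of cholesterol synthesis (ENSMUSG00000001467.5, chr5:4081145-4104746, minus strand), stood at 475, 458 and 465 CPM in control and at 415, 409.9 and 397 CPM in Fura-2 (−0.19 ± 0.04, adjusted p 0.0162). Insig1, the sterol-sensing anchor that holds SREBP in the endoplasmic reticulum and is itself an SREBP target (ENSMUSG00000045294.11, chr5:28071363-28078662), stood at 240.3, 227 and 225 CPM in control and at 203, 206 and 200.4 CPM in Fura-2 (−0.18 ± 0.04, adjusted p 0.0233). Both lost their call in 4 of the 6 fits that left out a library, Cyp51 at an adjusted p up to 0.195 and Insig1 up to 0.260. Cells raise these genes through the factor SREBP-2 when membrane sterol is low. SREBP-2 binds sterol regulatory elements, often beside a CCAAT box bound by NF-Y, so the 250 bases before the RefSeq start of Cyp51, of Insig1 and of Hmgcs1, the gene called against AAV below, are shown from the GRCm38.p6 build. Capitals mark CCAAT and the sterol element letters TCACNCCAC, each searched on both strands, so that a match on the other strand reads as its reverse complement.

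Cyp51 (chr5:4104698-4104947, minus strand): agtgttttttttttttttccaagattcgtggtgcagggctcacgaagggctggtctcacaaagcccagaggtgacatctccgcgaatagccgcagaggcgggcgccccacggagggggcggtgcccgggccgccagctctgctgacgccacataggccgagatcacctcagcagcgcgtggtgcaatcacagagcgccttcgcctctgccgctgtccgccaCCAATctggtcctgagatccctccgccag
Insig1 (chr5:28071162-28071411, plus strand): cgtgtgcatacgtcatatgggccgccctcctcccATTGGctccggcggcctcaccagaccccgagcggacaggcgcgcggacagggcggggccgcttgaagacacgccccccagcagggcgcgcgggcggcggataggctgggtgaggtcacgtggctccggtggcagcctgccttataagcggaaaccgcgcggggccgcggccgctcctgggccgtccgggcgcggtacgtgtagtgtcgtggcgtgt
Hmgcs1 (chr13:119690101-119690350, plus strand): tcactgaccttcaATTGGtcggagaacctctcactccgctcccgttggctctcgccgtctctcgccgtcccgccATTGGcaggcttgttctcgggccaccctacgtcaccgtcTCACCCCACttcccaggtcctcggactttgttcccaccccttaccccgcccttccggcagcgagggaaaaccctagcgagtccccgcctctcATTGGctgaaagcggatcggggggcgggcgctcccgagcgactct

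Each of the 3 promoters holds CCAAT, Hmgcs1 at 3 places and Cyp51 and Insig1 at 1 each. TCACNCCAC occurs only in that of Hmgcs1, and the marked stretches do not overlap. For comparison, CCAAT occurs in 33.85% and TCACNCCAC in 1.053% of all 32851 RefSeq promoter windows of this length. Of the tested sterol genes listed next, 16 of 20 windows held CCAAT (80.0%) and 1 held TCACNCCAC (5.0%). Of the called genes, 5 of 24 windows held CCAAT (20.833%) and 0 held TCACNCCAC. A match is a description of letters and not of binding. Only this spelling of the sterol element was searched, so a window without a match may still hold another form of it.

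A list of 24 genes of sterol synthesis and uptake was written after Cyp51 and Insig1 had been seen to fall, so it is described without a test. Of the 23 tested, those 2 were called. At an unadjusted p under 0.05, 12 were lower (5.88% of all genes were) and 0 were higher. The fitted change was below 0 in 21, with a median of −0.09. All 23 were bounded within 1.5-fold, and the groups did not overlap for 8 (34.8%, beside 16.2% of all genes). Idi1, the isopentenyl isomerase, was at 70.6 ± 1.74 CPM in control and 63.2 ± 3.29 in Fura-2 (adjusted p 0.219). Fdft1, squalene synthase, was at 105 ± 3.47 and 96.0 ± 2.31 CPM (adjusted p 0.189). With the counting strand not given, values of sterol genes whose exons overlap another gene are uncertain too. Among these are Idi1 (Gm48574), Fdft1 (Ctsb) and Hmgcs1 (Gm48342), each overlapped on the other strand. Srebf2, which encodes SREBP-2, was at 372 ± 8.62 and 373 ± 2.94 CPM.

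Other comparisons of the same 23 genes are set side by side. Against AAV, 20 of the 23 were below 0 with a median of −0.10, 12 at an unadjusted p under 0.05 and lower, beside a median of 0.0008 over all genes. Against Di-2-ANEPEQ, 19 of the 23 were below 0 with a median of −0.10 and 13 at an unadjusted p under 0.05 and lower. These 2 comparisons share the Fura-2 libraries with each other and with the first, so they do not add Fura-2 replicates. In DiBASC2 against control, which shares the control libraries, 13 of the 23 were called lower with a median of −0.16 (5.47% of all genes were called, in either direction), and Cyp51 averaged 366 CPM and Insig1 190.3 CPM. In LPS against control 13 were called higher and 1 lower, with a median of 0.13. Hmgcs1, the HMG-CoA synthase of the same pathway (ENSMUSG00000093930.2, chr13:119690379-119708260), was the only gene called between Fura-2 and AAV (0.00762% of genes). It averaged 303 ± 6.4 CPM in Fura-2 and 355 ± 7.18 in AAV (−0.23 ± 0.04, adjusted p 0.00435), while against control it did not pass (304, 296 and 308 CPM beside 330, 302 and 309 CPM, adjusted p 0.659). Without Fura-2 replicate 2, AAV replicate 1 or AAV replicate 2 the call against AAV was lost, at an adjusted p of 0.123, 0.0578 and 0.0565.

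**Figure D4:**
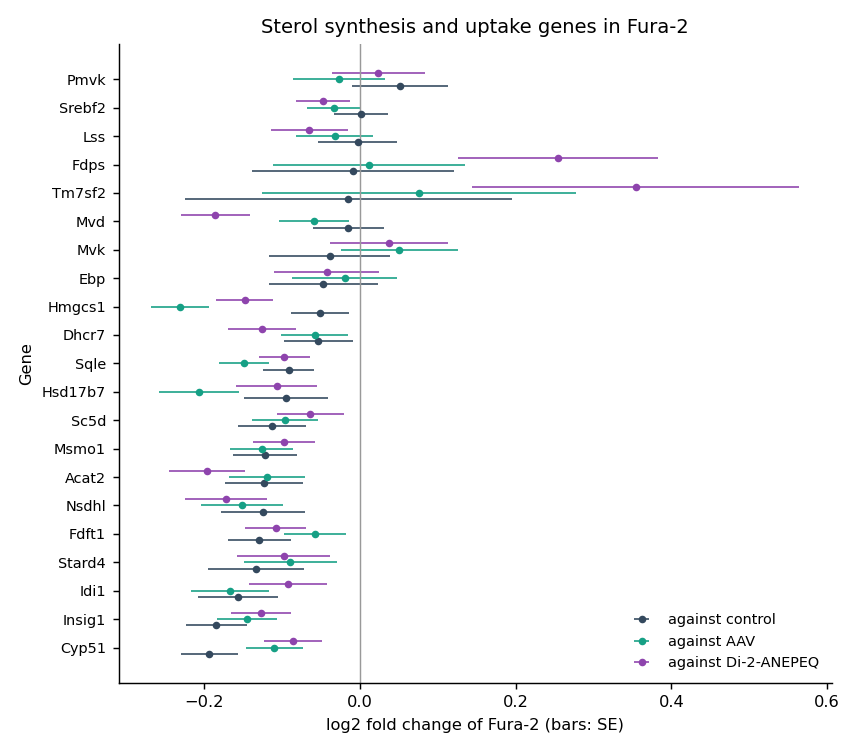
Log2 fold change (± SE) of Fura-2 against control (dark), AAV (green) and Di-2-ANEPEQ (purple) for 21 of the 23 tested genes of sterol synthesis and uptake. Most points lie left of 0 in each of the 3 comparisons, which share the Fura-2 libraries.

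Few genes separated Fura-2 from Di-2-ANEPEQ and AAV. Against Di-2-ANEPEQ 0 genes were called by edgeR (0.0% of genes, smallest adjusted p 0.177), with 825 at an unadjusted p under 0.05, and DESeq2 called 1. Bounded within 1.5-fold were 79.9% of genes and within 2-fold 90.1%. Against AAV, 1317 genes were at an unadjusted p under 0.05, and 79.7% and 89.8% of genes were bounded within 1.5-fold and 2-fold. A p that misses the threshold does not show that these groups are alike, and the bounds state how far apart they could be.

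Of the 33 genes, which were chosen on these Fura-2 libraries, 0 were called against Di-2-ANEPEQ or AAV. All 33 differed from control in the same direction in Di-2-ANEPEQ, AAV and DiBASC2, with 25, 27 and 23 of them called. Over all 13116 genes 404, 656 and 717 were called there. In COOH SWCNT 32 kept the direction (28 called in it, of 2627 genes called), in (GT)6 SWCNT 29 (11, of 2680) and in LPS 7 (4, of 3717). Counting calls in either direction, 13 of the 33 were called in (GT)6 SWCNT and 14 in LPS. For the 28 lowered genes, Fura-2 differed from Di-2-ANEPEQ by at most 0.19 and from AAV by at most 0.21 on the log2 scale. Rpl39 averaged 809 CPM in control, 621 in Fura-2, 558 in Di-2-ANEPEQ, 563 in AAV, 642 in DiBASC2 and 883 in LPS. In the nanotube groups it averaged 730.1 CPM with (GT)6 and 509 with COOH. The control mean was thus above those of all groups but LPS. Pdcd10 averaged 85.8 CPM in control, 67.1 in Fura-2, 62.2 in Di-2-ANEPEQ, 66.8 in AAV, 70.9 in DiBASC2 and 107 in LPS. Every group was compared with the same 3 control libraries, so these differences from control are not independent.

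Among the 33, Tnfrsf14 had the largest difference of Fura-2 from each of Di-2-ANEPEQ and AAV. It averaged 6.57 CPM in Fura-2, 5.05 in Di-2-ANEPEQ and 5.21 in AAV, and differed by 0.38 (adjusted p 0.381) and 0.34 (adjusted p 0.280). Ddit4 averaged 22.6 CPM in Fura-2, 19.5 in Di-2-ANEPEQ, 20.1 in AAV, 21.3 in DiBASC2 and 10.6 in LPS. Against LPS, 28 of the 33 were called. Of the lowered genes 26 were called lower than in LPS, all but Ovca2 and Hibch. Of the raised genes Ddit4 and Zbtb4 were called higher than in LPS, by 1.08 and 0.89.

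**Figure D5:**
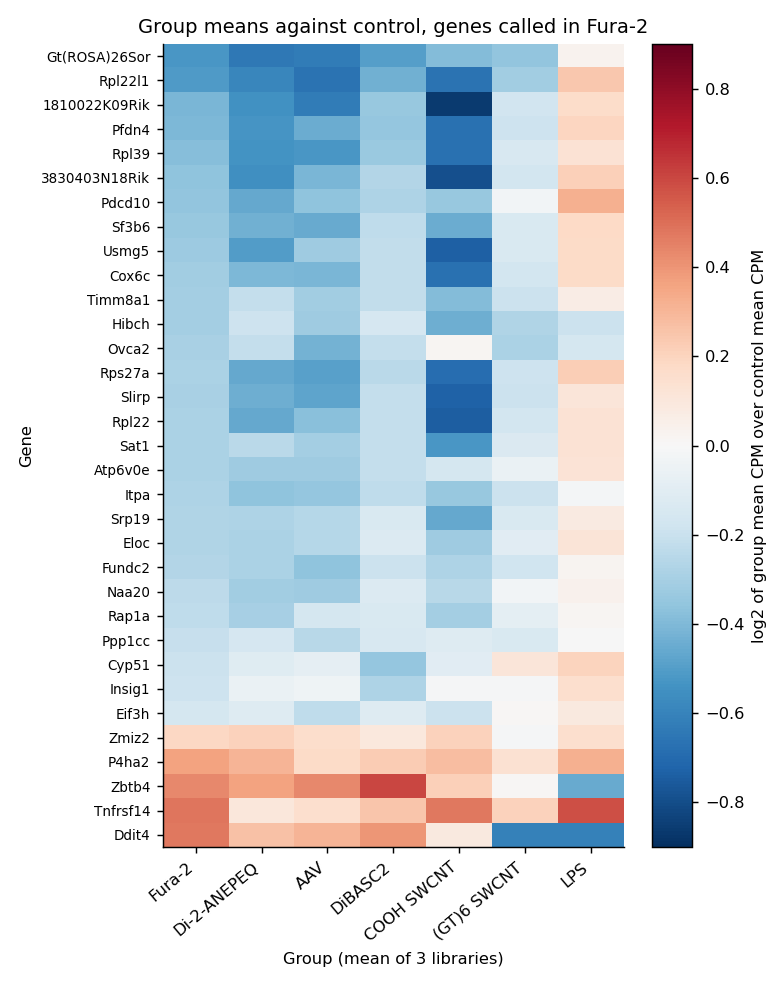
Log2 of each group's mean CPM over the control mean for the 33 genes called in Fura-2 (blue below control, red above; the scale ends at 0.9 in each direction). All columns are set against the same 3 control libraries; the Rpl39 row, for example, runs from 509 CPM in COOH SWCNT to 883 CPM in LPS around a control mean of 809 CPM.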

How the data were processed

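Poly-A RNA of 24 libraries, 8 groups of 3, was measured; groups and replicate numbers come from the sample titles. The authors deposited 1 table of unnormalized counts, whole numbers for each Ensembl gene identifier and library. STAR 2.5.4b and the build GRCm38.p6 are named in the submitters' processing notes; the counting tool, annotation and strand setting are not given in the sources used here. All columns matched a sample. Of 54838 identifiers 54809 matched GENCODE M21 by identifier without version, from which symbols and GRCm38 positions come.

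The deposited counts were tested with edgeR 4.0.16 (R 4.3.3; TMM factors, filterByExpr, glmQLFit and glmQLFTest, 2-sided) in 1 model of all 24 libraries with a mean per group (16 residual degrees of freedom), adjusted by Benjamini-Hochberg over all 13116 tested genes. Bounds and 95% intervals use the same standard errors. Replicates differed by more than counting noise (chi-square per degree of freedom 2.81 to 5.29) and correlated at 0.993 to 0.994. Scripts were tested on simulated counts. Alternatives were other scaling factors, filters and sample sets, a replicate block, DESeq2 1.42.0, removal of length and GC trends, and leaving out each library.

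Members and lists were chosen with earlier results of these data known. Every called gene is named, with library values for the first 14 by adjusted p among those of at least 5 CPM with groups that did not overlap; the 3 highest and 3 lowest log2 fold changes at 5 CPM or more, a fixed set of genes and each list's widest interval are given whatever their values. Library values of Ddit4, Insig1 and Hmgcs1, and the other genes named, were added after their values were seen. Promoters are from RefSeq (GRCm38.p6): 17 of the 23 sterol genes and 23 of the 33 called genes had an entry. The lists' widest intervals not given in the report were Ifnb1 and Csf3 (at most 3 counts), Rpl36al, Chac1, Tsc22d3, Dnajb1, Ccne1, Nfatc2ip and P2ry12, none of them called. A few genes that these rules name are not reported here.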

Additional observations from a re-analysis of the deposited data

How the results depend on the processing

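The 33 calls of Fura-2 against control became 188 with no low-count filter (46 higher, 142 lower), 53 with length and GC trends removed (5 higher, 48 lower), 86 by DESeq2 (25 higher, 61 lower) and 80 with only the 2 groups fitted (24 higher, 56 lower); leaving out each library gave 0 to 106. Against Di-2-ANEPEQ the 0 calls became 67 with no filter, 1 by DESeq2 and 21 with only the 2 groups, and 0 to 1 leaving out each library. Against AAV the 1 call became 46 with no filter, 6 with the trends removed, 21 by DESeq2 and 11 with only the 2 groups, and 0 to 1 leaving out each library. The causes were not tested. Against LPS the count stayed within 1.5 times of 4610; with upper-quartile factors 3087 of 4970 (62.1%) were higher in Fura-2 instead of 49.5%. The bounded counts moved by less than 1.5 times in each alternative run (1.5-fold: 10035 to 10407; 2-fold: 10325 to 11714). With the replicate block 22 genes were called (2 higher, 20 lower), all among the 33. Deviations of same-numbered control and Fura-2 libraries correlated at 0.0563, 0.0166 and 0.00415, and Fura-2 replicate 3 correlated best with control replicate 2, so the numbers were not taken to pair them. With 3 libraries a group, changes of genes under 1 CPM are mostly not bounded within 2-fold.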
